A study of Mus musculus with 4 samples.

Results

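Heat shock chaperones of the germline and of the stress response were followed in primary spermatocytes of circSRY KO and control mice. The 10 genes were taken by name from the gene table: the germline forms Hspa2, Hspa1l and Hspa4l, the stress-induced forms Hspa1a and Hspa1b, the constitutive forms Hspa8 and Hsp90ab1, Hsp90aa1, which is both abundant in the testis and heat inducible, and the heat shock factors Hsf1 and Hsf2. All 10 were among the 53700 genes listed and all 10 passed the filter on low counts, which left 17766 genes for testing.

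HSP70 and HSP90 chaperones use ATP to fold, hold and assemble client proteins, and HSP110 proteins such as HSPA4L exchange the nucleotide of HSP70. In most cells the stress-induced forms are nearly silent until heat or damaged protein releases HSF1, which then binds heat shock elements in their promoters. Male germ cells carry additional forms of their own: mouse HSPA2 is made from the spermatocyte stage onward and is needed for meiosis to proceed, whereas HSPA1L is known as a chaperone of spermatids.

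Mice of strain C57BL/6 were compared in 2 groups, both 8-wk-old: wild-type controls (libraries numbered 2 and 3) and circSRY KO mice (libraries numbered 1 and 2), with 2 mice per group. circSRY is the circular RNA that adult testis makes from Sry, and the KO allele lacks a short genomic stretch with the splice acceptor in front of the Sry coding region. Spermatocytes were collected from single cell suspensions of testis by flow cytometry on Hoechst staining, a measure of DNA content, and total RNA was sequenced after a TruSeq library preparation that does not keep strand. With 2 mice per group, p-values measure the spread between these mice only.

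The libraries held from 8045148.2 to 8839461 expected counts, so that 3 counts amounted to 0.339 to 0.373 CPM, the counts scaled to a common library size. Sry was listed at 0 in all 4 libraries, so its level does not check the genotype labels. Markers of several cell types moved with the groups. Among all genes tested, 20.0% were called higher and 15.0% lower in the test given below. The summed level of 10 elongating spermatid markers was 7984.45 to 8341.81 TPM (transcript abundance scaled for length and library size) in control and 41939.9 to 51715.7 TPM in circSRY KO libraries, and 10 of 10 rose. Of 15 round spermatid markers 13 rose (1491.55 to 1973.64 TPM against 3941.03 to 4585.27 TPM in sum). Their median log2 fold change was 1.59. Without control replicate 2 it was 1.34, and fewer of them were called. Of 12 leptotene and zygotene markers 8 fell (995.92 to 1384.13 TPM against 362.91 to 387.42 TPM), whereas of the 10 pachytene and diplotene markers 2 rose (Pgk2 and Nme8) and 2 fell (Piwil1 and Mybl1). Piwil1, a gene of the piRNA pathway, fell from 643.68 and 467.84 TPM to 17.24 and 31.06 TPM. The sums of these 10 markers overlapped at 7596.35 to 8818.41 TPM and 7458.13 to 8193.18 TPM, but most of each sum was Ldhc, at 4581.14 to 5812.47 TPM. Leukocyte markers rose for 13 of 13 genes (33.06 to 39.48 TPM against 424.85 to 597.9 TPM), Sertoli markers for 9 of 11 tested and stromal markers for 11 of 12, while 7 of 8 Leydig markers fell. The median log2 fold change of the stromal markers was 2.22, and 2.24 or 1.96 without control replicate 2 or control replicate 3. That of the Leydig markers was -1.49, and -1.46 or -1.59. Fewer markers of both lists were called with either control library left out. No marker listed for these cell types was at 0 in all libraries. The part of these shifts in the results given here was not tested, and in bulk libraries fewer cells of a type and less RNA per cell cannot be told apart.

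RefSeq promoter sequences on GRCm38.p6 were at hand for 6 of the 10 genes. The 150 bases before the annotated start of 4 of them are shown because Hspa2 and Hspa1l are the germline pair whose balance differed between the groups, and Hspa1a and Hsf2 are the other genes that rose. Capitals mark GAANNTTC, a pair of inverted repeats of the heat shock element, CCAAT or its reverse complement ATTGG, the CCAAT box, and TGACGT, the core of the cAMP response element. The stretches lie at chr12:76404220-76404369 (plus strand, Hspa2), chr17:34972553-34972702 (plus strand, Hspa1l), chr17:34972157-34972306 (minus strand, Hspa1a) and chr10:57486235-57486384 (plus strand, Hsf2).
Hspa2: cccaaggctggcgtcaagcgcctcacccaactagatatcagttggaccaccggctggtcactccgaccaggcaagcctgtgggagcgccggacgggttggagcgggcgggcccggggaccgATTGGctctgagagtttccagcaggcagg
Hspa1l: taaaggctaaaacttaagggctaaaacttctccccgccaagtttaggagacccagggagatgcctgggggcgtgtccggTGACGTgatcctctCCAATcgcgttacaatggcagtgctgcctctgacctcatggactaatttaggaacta
Hspa1a: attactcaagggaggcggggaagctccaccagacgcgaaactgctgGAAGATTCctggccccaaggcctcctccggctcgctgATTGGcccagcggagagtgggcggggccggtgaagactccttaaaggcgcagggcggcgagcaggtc
Hsf2: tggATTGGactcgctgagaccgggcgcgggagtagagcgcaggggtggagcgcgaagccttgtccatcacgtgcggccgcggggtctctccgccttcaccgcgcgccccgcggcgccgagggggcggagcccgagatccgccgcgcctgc

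Motifs were searched on both strands in windows of 300 bases, from 250 before to 50 after each start, in 32851 RefSeq promoters, and a match is a match of letters only. GAANNTTC was present in 7.86% of all promoters and, of the 6 heat shock genes, in Hspa1a and Hspa1b, both at position -104. TTCNNGAA, the other arrangement of the repeats, was present in 8.52% of all promoters and in none of the 6. TGACGT was present in 7.51% of all promoters and, of the 6, in Hspa1l alone, at position -71, followed by CCAAT at position -57. The letters of both motifs do not overlap. CCAAT was present in 37.4% of promoters and in 5 of the 6, all but Hspa4l, and the GC box GGGCGG was present in 35.7% and in 6 of 6. TATAAA was present in 13.6% of promoters and in none of the 6. The promoters of Hspa1a and Hspa1b were identical at 296 of 300 positions (98.7%).

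Of the 10 heat shock genes, 3 were higher in the circSRY KO libraries (Hspa1l, Hspa1a and Hsf2), none fell and 7 did not pass the test. A call required an adjusted p under 0.05 in edgeR's quasi-likelihood test and an estimate of 1 or more on the log2 scale, up or down. The same 3 genes, and no other, had an unadjusted p under 0.05, and DESeq2 also called 3 higher and 0 lower. Among all genes tested, 20.0% were called higher, 15.0% lower and 35.0% in either direction, so that 3 of 10 called is a share close to the background. The median log2 fold change of the 10 genes was -0.13, beside 0.07 for all genes. Of the 7 genes not called, 5 had estimates below 0 and 2 above 0. In normalised CPM the groups did not overlap for 10 of the 10 genes, 5 in each direction, where 71.0% of all genes showed no overlap. Among all called genes 57.1% were higher in circSRY KO, a share that was 69.2% after upper-quartile scaling, 55.2% after RLE scaling, 47.5% with DESeq2 and 43.9% when limma was run on log2(TPM + 1), where the test and the unit changed together. The direction of each of the 10 genes was the same under these settings.

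**Figure D1:**
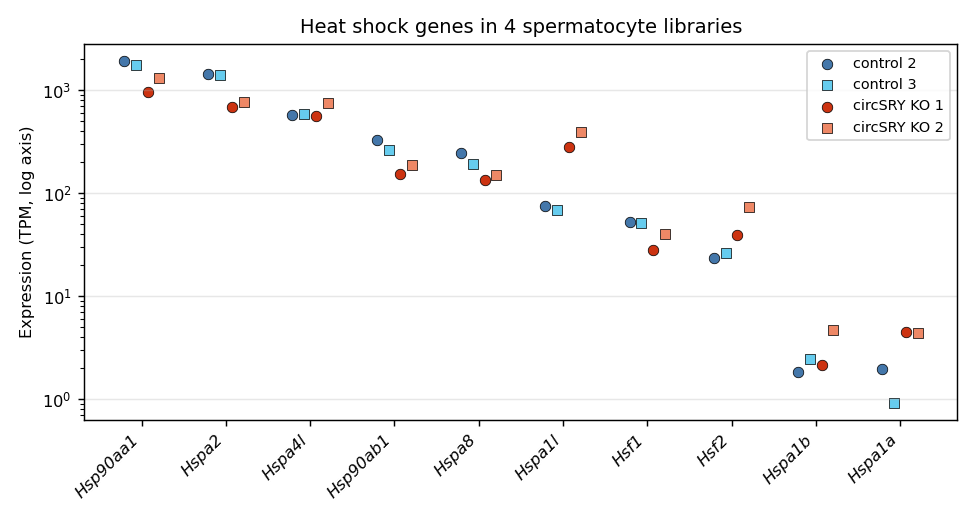
Expression of the 10 heat shock genes in TPM (vertical axis, log scale) in each of the 4 libraries, with genes ordered by their control level; circles and squares are single libraries, blue for control and red for circSRY KO. Hspa1l lies at 69.6 and 75.06 TPM in control against 281.07 and 396.85 TPM in circSRY KO, Hsf2 is also higher in both circSRY KO libraries, and the libraries of both groups overlap for Hspa4l and Hspa1b.

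**Figure D2:**
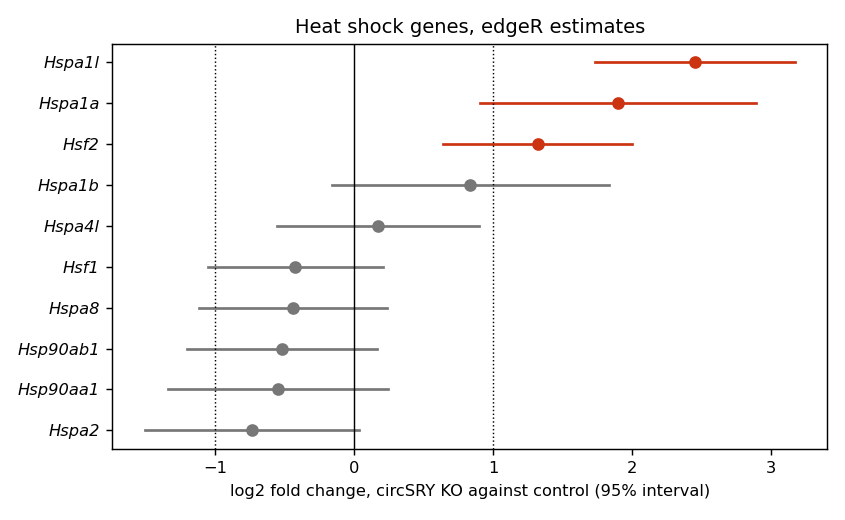
Estimates from edgeR on the log2 scale, circSRY KO over control (horizontal axis), with its 95% interval for each heat shock gene; red marks the 3 called genes and dotted lines mark a log2 fold change of 1 in size. The intervals of Hspa1l, Hspa1a and Hsf2 lie above 0, and those of the other 7 genes include 0.

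Hspa2, the HSP70 of spermatocytes, was among the most abundant transcripts of every library. It was measured at 1440.49 and 1424.14 TPM in control and at 685.36 and 769.63 TPM in circSRY KO. Both circSRY KO libraries lay below both controls, and its rank among all genes by TPM went from 54 and 69 to 199 and 133. The log2 fold change was -0.74 (SE 0.361, 95% interval -1.51 to 0.03) and did not pass the test (edgeR adjusted p = 0.120). With DESeq2 (-0.82, adjusted p = 0.0157) and with limma on log2(TPM + 1) (-0.98, adjusted p = 0.0253) or log2(TPM + 0.1) (-0.98, adjusted p = 0.0233), the adjusted p was under 0.05 but the size fell short of the call. On GRCm39 the gene (ENSMUSG00000059970) lies at chr12:76450151-76453712 on the plus strand with 2 exons (exons here and in the other genes are those of the canonical GENCODE transcript). No stretch of 50 bases of the Hspa2 transcript occurs, in the same direction, in transcripts of another gene. The opposite strand gene 4930426I24Rik overlaps 30.7% of the exon bases of Hspa2. It was listed at no more than 59 expected counts in a library, where Hspa2 had 10082 to 18307.

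Hspa1l, the spermatid HSP70, had the largest change of the 10 genes. Its level was 75.06 and 69.6 TPM in control against 281.07 and 396.85 TPM in circSRY KO, and its rank by TPM rose from 2834 and 3047 to 727 and 412. Both circSRY KO libraries lay above both controls, by more than the spread within either group. The fitted difference was 5.48-fold, a log2 fold change of 2.45 (SE 0.337, 95% interval 1.74 to 3.17, edgeR adjusted p = 0.000164), higher than that of 95.9% of the genes tested. Hspa1l rose under each of 13 other settings, including the loss of any 1 library, with log2 fold changes from 2.19 to 2.66.

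The Hspa1l transcript could not be separated from its antisense neighbour. On GRCm39 the gene (ENSMUSG00000007033) lies at chr17:35191664-35198261 on the plus strand with 2 exons, and the long noncoding RNA gene Gm10501 on the opposite strand covers 1778 of its 2487 exon bases (71.5%). Gm10501 was listed at 590 and 586 expected counts in control and 2882 and 3721 in circSRY KO, beside 865.77 and 873.93 and then 4852.87 and 5080.66 for Hspa1l. The counts listed for both genes were thus several times higher in both circSRY KO libraries. Because the reads carry no strand, the share of each strand in this locus cannot be told apart. With the counts of both genes summed, the log2 fold change was 2.45 (SE 0.352, edgeR adjusted p = 0.000221), and 2.28 to 2.58 when any 1 library was left out, with the call kept each time.

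Hspa4l, a germ cell HSP110, was the third most abundant of the 10 genes in control (GRCm39, chr3:40698643-40750538, plus strand, 19 exons). It stood at 579.41 and 594.46 TPM in control and at 561.07 and 758.05 TPM in circSRY KO, so the groups overlapped. In normalised CPM, which were 834.6 and 912.0 in control and 966.2 and 1000.2 in circSRY KO, they did not overlap. The log2 fold change was 0.17 (SE 0.342, edgeR adjusted p = 0.721), and its interval of -0.56 to 0.90 leaves out a change of 2-fold in either direction. TPM and CPM are scaled differently, and 1 expected count was worth a median of 0.0712 TPM in circSRY KO replicate 1 and 0.0950 to 0.104 TPM in the other libraries.

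The makeup of the cytosolic HSP70 transcripts differed between the groups, with less Hspa2 and more Hspa1l in circSRY KO. Of the summed TPM of Hspa2, Hspa1l, Hspa8, Hspa1a and Hspa1b, Hspa2 made up 81.6% and 84.4% in the control libraries and 61.8% and 58.0% in the circSRY KO libraries. Hspa1l made up 4.25% and 4.12% in control and 25.3% and 29.9% in circSRY KO. The ratio of Hspa2 to Hspa1l transcripts was thus 19.2 and 20.5 in control and 2.44 and 1.94 in circSRY KO. The share of both germline genes together was nearly level, at 85.8% and 88.5% in control and 87.1% and 87.9% in circSRY KO, so these ranges overlapped. The sum of the 5 genes was 1766.09 and 1688.36 TPM in control against 1109.24 and 1326.44 TPM in circSRY KO. In expected counts the difference was smaller, with sums of 20630.4 and 21466.0 in control against 19183.9 and 17018.6 in circSRY KO. Since groups of 2 libraries allow no p below 0.333 in an exact permutation test (two-sided), these shares are given as a description. The Hspa1l part of them carries the antisense overlap named above.

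**Figure D3:**
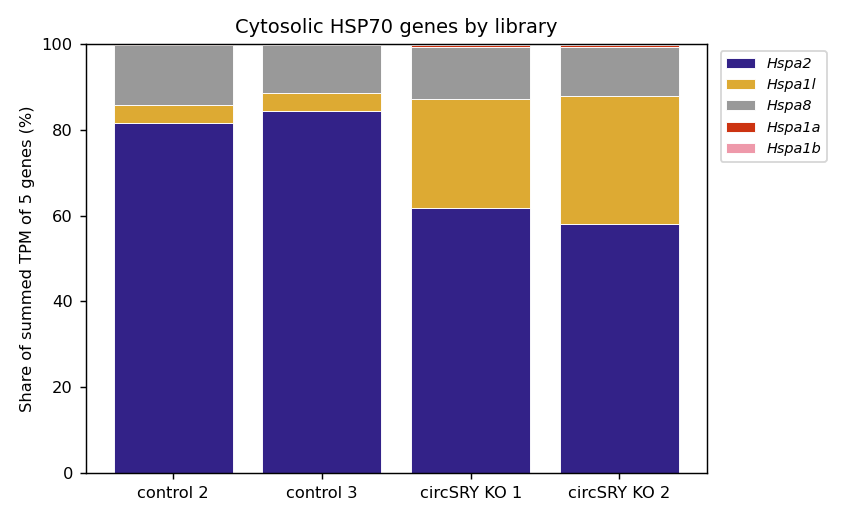
Share of each of 5 cytosolic HSP70 genes in their summed TPM (vertical axis, %) for each library; coloured segments are genes. Hspa2 and Hspa1l together fill 85.8% to 88.5% of every bar, while the Hspa1l segment is 4.12% to 4.25% in control and 25.3% to 29.9% in circSRY KO; Hspa1a and Hspa1b are barely visible at the top.

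Hspa1a and Hspa1b, the heat-induced HSP70 pair, stood at the bottom of the 10 genes in every library. Hspa1a was listed at 1.99 and 0.93 TPM in control and at 4.49 and 4.46 TPM in circSRY KO, from 28.02 and 14.36 expected counts against 94.76 and 69.71. Both circSRY KO libraries were above both controls. Its log2 fold change was 1.90 (SE 0.467, 95% interval 0.91 to 2.90, edgeR adjusted p = 0.00594). Without control replicate 3 the log2 fold change was 1.44 and the gene was not called (edgeR adjusted p = 0.119), nor was it with limma on log2(TPM + 0.1) (1.64, limma adjusted p = 0.0608). Even at its higher level Hspa1a ranked 11590 and 12861 among all genes by TPM in the circSRY KO libraries.

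Hspa1b was measured at 1.83 and 2.47 TPM in control and at 2.14 and 4.67 TPM in circSRY KO, and the groups overlapped. The log2 fold change was 0.84 (SE 0.468, 95% interval -0.16 to 1.83) and did not pass the test (edgeR adjusted p = 0.172), although it did without circSRY KO replicate 1 (log2 fold change 1.18, edgeR adjusted p = 0.0192). The estimate was 0.35 without circSRY KO replicate 2 (edgeR adjusted p = 0.581) and 0.55 without control replicate 2 (edgeR adjusted p = 0.628), so single libraries moved it in both directions. The pair cannot be split with confidence, because 62.3% of the 50-base stretches of Hspa1b also occur in Hspa1a, and 58.8% of those of Hspa1a in Hspa1b. In Hspa1l occur 7.95% of the stretches of Hspa1a and 6.79% of those of Hspa1b. Hspa1l held 865.77 and 873.93 expected counts in control and 4852.87 and 5080.66 in circSRY KO. The values of the pair and of its sum can thus also depend on reads shared with Hspa1l, which was not tested. The summed expected counts of Hspa1a and Hspa1b were 52.23 and 50.07 in control and 137.13 and 138.34 in circSRY KO. Each group thus held close values for the pair, with no overlap between groups. The sum rose by a log2 fold change of 1.37 (SE 0.372, edgeR adjusted p = 0.0105), which was 1.37 and 1.29 but not called without control replicate 2 (edgeR adjusted p = 0.141) or control replicate 3 (edgeR adjusted p = 0.139). The 3 genes share a locus: on GRCm39 Hspa1a (ENSMUSG00000091971, chr17:35188166-35191132, minus strand, 1 exon) starts 532 bases from Hspa1l, which is read in the opposite direction, and Hspa1b (chr17:35175412-35178214, minus strand) starts 12918 bases from Hspa1a.

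Hspa8, the constitutive HSP70 of all cells (GRCm39, chr9:40711630-40731039, plus strand, 9 exons), did not pass the test. It was at 246.72 and 191.22 TPM in control and at 136.18 and 150.83 TPM in circSRY KO, so both circSRY KO libraries were lower. The log2 fold change was -0.44 (SE 0.317, 95% interval -1.12 to 0.23, edgeR adjusted p = 0.285). Its share of cytosolic HSP70 transcripts was 11.3% to 14.0% in control and 11.4% to 12.3% in circSRY KO, which overlap. Of its 50-base stretches 73.2% occur in transcripts of 12 other genes, led by Gm15459, which was listed at 15.38 to 27.03 expected counts against 1717.61 to 2703.43 for Hspa8.

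Neither HSP90 gene passed the test. Hsp90aa1, the heat-inducible HSP90 that mouse spermatocytes need to pass the pachytene stage, was the most abundant of the 10 genes, at 1927.92 and 1755.03 TPM in control against 956.96 and 1310.73 TPM in circSRY KO. Its log2 fold change was -0.55 (SE 0.372, 95% interval -1.34 to 0.24, edgeR adjusted p = 0.255). Hsp90ab1, the constitutive HSP90, was at 331.78 and 264.93 TPM in control and at 156 and 189.6 TPM in circSRY KO. The log2 fold change was -0.52 (SE 0.321, 95% interval -1.20 to 0.17, edgeR adjusted p = 0.215), and -0.78 with limma on log2(TPM + 1) (limma adjusted p = 0.0497), again short of the size required. For both genes each circSRY KO library was below each control. On GRCm39 Hsp90aa1 lies at chr12:110656842-110669166 and Hsp90ab1 at chr17:45878552-45891949, both on the minus strand with 11 exons. On the opposite strand the long noncoding RNA gene Gm56882 covers 29.9% of the exon bases of Hsp90ab1, and Slc35b2 covers 4.9%. Gm56882 was not among the genes listed, so reads from it cannot be told apart from those of Hsp90ab1. The balance of Hsp90aa1 and Hsp90ab1 was level. Hsp90aa1 made up 85.3% and 86.9% of their summed TPM in control and 86.0% and 87.4% in circSRY KO. Of the 50-base stretches of Hsp90aa1 54.3% occur in other transcripts, mainly of Gm12346, which held 72.26 to 112.44 expected counts against 16298.53 to 24952.22 for Hsp90aa1.

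Of the 2 heat shock factors, Hsf2 rose and Hsf1 did not pass the test. Hsf1, the factor that drives the heat shock response, was at 53.18 and 51.74 TPM in control and at 28.06 and 40.28 TPM in circSRY KO. Both circSRY KO libraries were below both controls, with a log2 fold change of -0.42 (SE 0.296, 95% interval -1.05 to 0.21, edgeR adjusted p = 0.272). Hsf2, a factor of developing germ cells in the mouse testis, was at 23.75 and 26.63 TPM in control and at 39.59 and 73.45 TPM in circSRY KO. Both circSRY KO libraries were above both controls, and the spread between them was wider than in control. Hsf2 rose 2.50-fold, a log2 fold change of 1.32 (SE 0.32, 95% interval 0.64 to 2.00, edgeR adjusted p = 0.00543). Without control replicate 2 the log2 fold change was 1.15 and without control replicate 3 it was 1.42, and neither was called (edgeR adjusted p = 0.182 and 0.0694). The ratio of Hsf1 to Hsf2 by TPM was 2.24 and 1.94 in control and 0.709 and 0.548 in circSRY KO, so the order of both factors was exchanged within each library. The opposite strand gene Dgat1 covers 24.9% of the exon bases of Hsf1 and went from 1174 and 1232 to 703 and 539 expected counts, beside 463 and 467 and then 367 and 356 for Hsf1, whose reads there cannot be told apart. Bop1, also on the opposite strand, covers 5.2% of the exon bases of Hsf1, and 4930467K11Rik covers 1.6% of those of Hsf2. On GRCm39 Hsf1 lies at chr15:76361558-76388138 and Hsf2 (ENSMUSG00000019878) at chr10:57362362-57390082, both on the plus strand. Neither transcript has a 50-base stretch in common with transcripts of another gene read in the same direction.

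The order of the genes by TPM was otherwise similar in both groups. In control it ran from Hsp90aa1 through Hspa2, Hspa4l, Hsp90ab1, Hspa8, Hspa1l, Hsf1 and Hsf2 to the pair Hspa1a and Hspa1b, and only that pair overlapped among neighbours. In circSRY KO Hspa1l stood above Hsp90ab1 and Hspa8, and neighbours overlapped for Hspa2 and Hspa4l, for Hsf2 and Hsf1, and for Hspa1a and Hspa1b.

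Of 84 chaperone and co-chaperone genes outside the 10, 78 were tested. Beside 20.0% of all genes called higher and 15.0% lower, 8 of these 78 rose, 9 fell and 61 were not called, with a median log2 fold change of 0.01. This balance depended on the setting: 14 rose and 4 fell with upper-quartile scaling, 2 and 2 without control replicate 2, 4 and 5 without control replicate 3, 5 and 13 without circSRY KO replicate 1, and 13 and 6 without circSRY KO replicate 2. Of the 9 other HSP70 and HSP110 genes, Hspa12b rose (log2 fold change 1.32) from low levels of 1.22 and 1.72 TPM to 2.53 and 4.53 TPM. Hyou1, the HSP110 of the endoplasmic reticulum (ER), fell from 231.21 and 188.24 TPM to 27.46 and 38.94 TPM (log2 fold change -2.42, edgeR adjusted p = 0.000182), and Hspa14, which acts at the ribosome, fell as well (-1.18). Hspa12b was not called by DESeq2, with limma on TPM or without either control library, and Hspa14 was not called with upper-quartile scaling or without control replicate 2. None of the 11 exchange factors and regulators of HSP70 was called in the edgeR test or by DESeq2, and 2 had an unadjusted p under 0.05, both higher. In edgeR 2 rose with upper-quartile scaling and 2 without circSRY KO replicate 2, and limma-voom called 1. Bag5, a nucleotide exchange factor, came nearest with 362.82 and 467.43 TPM against 603.76 and 677.1 TPM, where the log2 fold change of 0.99 fell short of the size required (edgeR adjusted p = 0.0356), and Bag5 was among the genes called in each of these 3 settings.

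Among 17 J proteins of classes A and B, the partners that hand clients to HSP70, 5 rose and 1 fell, with a median log2 fold change of 0.47, where 20.0% of all genes were called higher and 35.0% in either direction, so the share called is close to the background. Dnajb8, a J protein with high expression in testis, went from 68.73 and 69.58 TPM to 391.06 and 335.31 TPM (log2 fold change 2.69, edgeR adjusted p = 9.2e-05). Dnajb7, also a testis gene, rose with a log2 fold change of 2.30, Dnaja4 with 1.5, Dnajb14 with 1.22 and Dnajb4 with 1.15. Dnajb11, the J protein of the ER, fell from 143.44 and 123.33 TPM to 53.95 and 49.12 TPM (log2 fold change -1.10), but was not called with upper-quartile scaling or without control replicate 2, control replicate 3 or circSRY KO replicate 2. The heat-inducible J protein genes Dnajb1 and Dnaja1 were not called, with log2 fold changes of 0.21 and -0.32. The number of J protein genes that rose was 8 with upper-quartile scaling, 2 without control replicate 2, 3 without control replicate 3 and 3 without circSRY KO replicate 1. Dnajb8 and Dnajb7 were called under each of the 13 other settings. Dnaja4 was not called without control replicate 2, and Dnajb14 and Dnajb4 were not called without control replicate 2, control replicate 3 or circSRY KO replicate 1.

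Of 22 HSP90 co-chaperone and organelle HSP90 genes, 5 fell and 0 rose in the edgeR test and in DESeq2, beside 15.0% of all genes called lower and 20.0% higher, with a median log2 fold change of -0.49. At an unadjusted p under 0.05, which a large share of all genes also had, 9 were lower and 1 was higher. Tomm34, which links HSP70 and HSP90, went from 82.12 and 73.34 TPM to 25.25 and 26.3 TPM (log2 fold change -1.46, edgeR adjusted p = 0.0021). Fkbp6, a germ cell co-chaperone needed for meiosis in mouse males, fell from 102.59 and 73.85 TPM to 34.65 and 30.13 TPM (-1.12). Chordc1 (-1.22), the ubiquitin ligase gene Stub1 (-1.11) and Cdc37l1 (-1.06) also fell. Tomm34 was called under each of the 13 other settings. Fkbp6 and Stub1 were not called with upper-quartile scaling or without control replicate 2, control replicate 3 or circSRY KO replicate 2. Cdc37l1 was not called with upper-quartile scaling or limma on log2(TPM + 0.1). Its call was also lost without control replicate 2, control replicate 3 or circSRY KO replicate 1. Chordc1 was not called with limma on TPM or without control replicate 2. The number that fell was 2 with upper-quartile scaling, 7 with limma on log2(TPM + 1), 1 without control replicate 2, 2 without control replicate 3, 7 without circSRY KO replicate 1 and 3 without circSRY KO replicate 2. Sugt1, a co-chaperone gene, was called higher with upper-quartile scaling, with limma on TPM and without circSRY KO replicate 2.

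Genes that mark the heat shock response outside the 10 were mostly not called. This also held among all genes tested, where 35.0% were called in either direction. Of 11 heat-inducible chaperone genes 10 were tested, of which Hspb1 rose (11.8 and 8.89 TPM against 21.0 and 18.87 TPM, log2 fold change 1.24), Chordc1 fell and 8 did not pass, with a median log2 fold change of -0.01. Hspb1, a small heat shock protein gene, was not called by DESeq2, with limma on TPM or without control replicate 2, control replicate 3 or circSRY KO replicate 1, and Chordc1 was not called with limma on TPM or without control replicate 2. Of 9 small heat shock protein genes 5 were tested, of which Hspb1 rose and Hspb6 fell (-1.31), the latter not called without control replicate 2. None of the 11 chaperonin genes was called in the edgeR test or by DESeq2 (median log2 fold change 0.15), and 2 were lower at an unadjusted p under 0.05. The most abundant, Tcp1 and Cct3, both subunits of the cytosolic chaperonin, had log2 fold changes of 0.26 and -0.34. Without circSRY KO replicate 1, 2 chaperonin genes fell and the median was -0.17, and limma on TPM called 1 lower. Of 13 ER stress genes tested, Hyou1, Sdf2l1 (-2.20) and Canx (-1.05) fell, Herpud1 rose (1.28), and 9 were not called. Herpud1 and Canx were not called without control replicate 2 or control replicate 3, nor Canx with upper-quartile scaling, whereas Hyou1 and Sdf2l1 were called under all 13 other settings. Of the 3 other heat shock factor and HSF-binding genes tested, Hsfy2, a testis gene of the heat shock factor family, rose from 28.63 and 37.79 TPM to 84.22 and 123.13 TPM (log2 fold change 1.87, edgeR adjusted p = 0.000675), but was not called without control replicate 2.

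**Figure D4:**
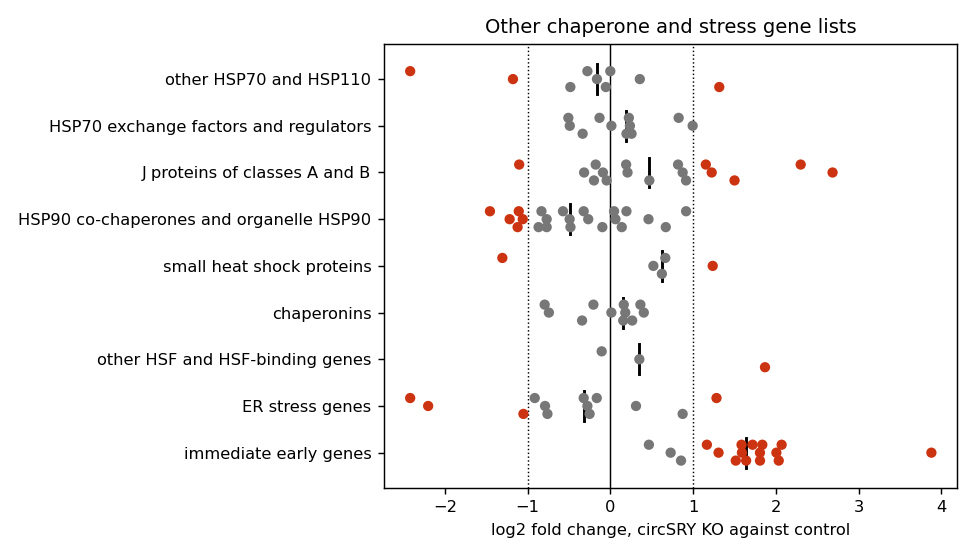
Estimated difference on the log2 scale, circSRY KO over control (horizontal axis), for each tested gene of 9 lists around the heat shock genes; points are genes, red where called, short black bars are list medians and dotted lines mark a log2 fold change of 1 in size. Of 17 J proteins 5 are called at the right and 1 at the left, 5 HSP90 co-chaperones are called at the left, and 14 of 17 immediate early genes lie at the right as called.

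Immediate early genes, which rise within minutes of handling or signalling, were also higher in circSRY KO libraries. Of 17 such genes 14 rose and none fell, beside 20.0% of all genes called higher and 15.0% lower. The numbers were the same at an unadjusted p under 0.05, and 12 and 0 in DESeq2. The list had a median of 1.64 (log2) and summed levels of 214.9 and 168.64 TPM in control against 534.28 and 393.91 TPM in circSRY KO. Without control replicate 3, 7 rose, and with limma on log2(TPM + 0.1), 9 rose. Jund, which encodes a subunit of the AP-1 factor, went from 54.05 and 46.68 TPM to 146.77 and 111.34 TPM. Their part in the level of Hspa1a was not tested, and neither was that of the leukocyte and stromal RNA given above.

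Partners of HSPA2 known from the mouse testis were read beside it. HSPA2 assembles CDK1 with cyclin B1 in spermatocytes, binds the synaptonemal complex and carries transition proteins in spermatids. Tnp2 rose from 1720.1 and 1672.37 TPM to 10876.4 and 9647.35 TPM (log2 fold change 2.94, edgeR adjusted p = 0.00012), and Tnp1, the other transition protein gene, rose with a log2 fold change of 2.88. Ccnb1, which encodes cyclin B1, rose with 1.12, but was not called without control replicate 2, control replicate 3 or circSRY KO replicate 1. Sycp1, a core gene of the synaptonemal complex, fell from 190.27 and 105.57 TPM to 47.1 and 49.72 TPM (log2 fold change -2.07, edgeR adjusted p = 0.00052). Cdk1 (-0.53) and Bag6 (-0.13), whose product keeps HSPA2 stable, were not called. The transition protein genes and Sycp1 are also on the spermatid and the leptotene and zygotene marker lists, so their values are not separate from the marker shifts given above.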

How the data were processed

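RNA-seq libraries of Hoechst-sorted spermatocytes from 2 control and 2 circSRY KO mice were grouped by their GEO labels. Per the submitters' processing notes and the paper's methods, reads were aligned to GRCm39 with STAR 2.7.0f and counted per gene with RSEM 1.3.2; mm9 is listed as a further build, and no release of the annotation is named in the sources read. The expected counts, as deposited, are the authors' RSEM estimates before normalization (8.16% of values were not whole), and the deposited TPM and FPKM are the authors' length-scaled values of the same run. FPKM were not analysed, and a second TPM sheet was identical to the first. The authors' table of their own comparison (log2 fold change, mean log2 expression, a score, p-value and FDR from edgeR 3.28.1) was not used. RSEM shares reads among similar transcripts, so values of near-identical genes depend on that split.

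Rounding to whole numbers preceded the test of expected counts by edgeR 4.0.16 in R 4.3.3 (TMM, filterByExpr, quasi-likelihood F test, Benjamini-Hochberg adjustment over 17766 of 53700 genes). Calls required FDR < 0.05 and a log2 estimate of 1 or more, up or down. The common dispersion was 0.0685, and the chi-square of replicate counts per gene was 11.2 in control and 35.7 in circSRY KO, so no libraries were duplicates. The code was tested on simulated data. Alternatives used other scalings, no filter, DESeq2 1.42.0, limma 3.58.1 on voom or log2(TPM + 1) and log2(TPM + 0.1), each library left out, and Hspa1a and Hspa1b summed. The sum of Hspa1l and Gm10501 and the sums with a library left out were chosen after seeing the data. Gene positions, exon overlaps and shared 50-base stretches are from GENCODE M39 on GRCm39, and promoters are from RefSeq on GRCm38.p6. The stretches were compared in the direction of the transcripts only, so overlap with opposite strand genes is not counted in them.

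The members and lists were chosen with earlier results of these data known. Genes named were all 10 members, and from each list up to 4 called genes of the highest mean TPM, every called gene where 5 or fewer were called, and the 2 of the highest mean TPM where none was. Dnajb7, Dnajb11, Dnajb1, Dnaja1, Cdk1, Bag6, Sugt1, Piwil1, Mybl1, Pgk2, Nme8 and the genes that overlap or resemble members were named after their values were seen.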

Additional observations from a re-analysis of the deposited data

How the results depend on the processing

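The labels give no pairing of control and circSRY KO mice, so no paired analysis was made. None of the 10 heat shock genes changed direction in 13 alternatives, and Hspa1l was called in each. Without control replicate 3 only 1 of the 10 was called higher, and with any 1 library left out the number was 1 to 4, where 0 were called lower each time. Over the alternatives Hspa2 ranged from -0.98 to -0.53 and Hsf2 from 1.02 to 1.55 (log2). Over all genes, 3551 were called higher and 2671 lower. The number higher was 2219 with limma on log2(TPM + 1) and 2117 on log2(TPM + 0.1), and 1232 to 4127 with 1 library left out. The number lower was 952 to 3368 with 1 library left out, with both lowest values without control replicate 2. The median of all genes moved from 0.07 to 0.28 with upper-quartile scaling and to -0.13 and -0.16 with limma on TPM. From expected counts the germline share of HSP70 in circSRY KO was 88.8%. The cause of these differences was not tested. Groups of 2 mice leave intervals wider than 1 log2 unit for each gene, so the 7 genes not called are not shown to be unchanged.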
